A study of Mus musculus with 16 samples.

Results

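Small clones were the tumour-infiltrating T cells at day 14 whose receptor was found in 2 to 9 cells of a library. They were chosen by clone size alone, so their sizes and shares are given as a description. A receptor was the pair of a TRA (alpha) and a TRB (beta) chain, and cells belonged to the same clone when V segment, J segment and CDR3 nucleotides of both chains were alike. Cells with TRAV11 joined to TRAJ18, the alpha chain of invariant natural killer T cells, were left out. This gave 254 small clones with 775 cells, of 2824 paired cells at day 14 and 4787 paired cells of the whole series before that exclusion.

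The cells came from orthotopic tumours in C57BL/6 mice, made by injecting the mouse hepatoma line Hepa1-6 into a liver lobe. Control mice (CON) had the genotype CD4creMatr3WT/WT and KO mice CD4creMatr3fl/fl, so both groups carried Cre under the Cd4 promoter and differed in the Matr3 alleles. Matr3 codes for the nuclear matrix protein matrin 3, and Cd4-driven Cre acts in developing T cells of the CD4 and CD8 lineages. At day 14 there were 2 receptor libraries per genotype, made with 5′ droplet chemistry from dissociated tumour, and 4 libraries of the same design from day 5 were used to look for related receptors. Receptor tables do not hold the level of Matr3, which was therefore not checked, and CD4 and CD8 T cells cannot be told apart in them. Whether replicate libraries represent different mice is not stated in the labels, and a p-value here speaks for the spread between libraries alone, which may be technical.

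Each T cell clone carries a receptor assembled in the thymus from V, D and J segments for the beta chain and V and J segments for the alpha chain. The CDR3 loop spans the junction of these segments and makes much of the contact with the peptide held by an MHC molecule. The same CDR3 protein sequence can arise in different mice from different nucleotides, and receptors found in several animals are called public. T cells that meet their antigen divide, and their daughters share both chains.

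The sequences that recurred among small clones were of 3 kinds, and they are shown first because the later results refer to them. These groups were picked after their values were seen and were not tested. The first is a public TRB made of TRBV5 and TRBJ2-7, with a CDR3 of 11 residues. It occurred in 7 small clones with 23 cells, and in all 4 day 14 libraries when 2 large clones and 6 unexpanded cells were counted too. The 15 clonotypes used 6 nucleotide forms for the same residues, written here 5′ to 3′ with capitals at the positions that differ among the forms.
CON replicate 1, small clone of 5 cells: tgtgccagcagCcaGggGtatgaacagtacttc
CON replicate 1, small clone of 4 cells: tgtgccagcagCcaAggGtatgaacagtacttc
CON replicate 1, small clone of 3 cells: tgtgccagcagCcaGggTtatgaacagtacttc
CON replicate 2, small clone of 2 cells: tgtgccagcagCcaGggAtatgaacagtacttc
KO replicate 2, small clone of 5 cells: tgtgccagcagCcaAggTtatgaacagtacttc
KO replicate 2, large clone of 12 cells: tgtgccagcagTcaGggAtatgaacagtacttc
Of the 15 clonotypes, 9 had TRAV7-6 joined to TRAJ22 as the alpha chain.

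The second group joined TRBV12-1 to TRBJ2-5 with a CDR3 of 12 residues. It held 14 small clones with 45 cells and 10 nucleotide sequences, and 10 of the 14 used TRAJ27. Each sequence is given with its largest small clone. The capitals mark positions that differ among the 10, which lie in the middle of the CDR3 where V, D and J meet.
CON replicate 2, TRAV10 with TRAJ27, 2 cells: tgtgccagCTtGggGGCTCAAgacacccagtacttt
CON replicate 2, TRAV5-1 with TRAJ27, 2 cells: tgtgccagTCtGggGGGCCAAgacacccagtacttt
KO replicate 1, TRAV10 with TRAJ27, 5 cells: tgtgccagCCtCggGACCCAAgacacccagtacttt
KO replicate 1, TRAV5-1 with TRAJ27, 5 cells: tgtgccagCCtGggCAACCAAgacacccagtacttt
KO replicate 1, TRAV10 with TRAJ52, 5 cells: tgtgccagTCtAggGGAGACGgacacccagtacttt
KO replicate 1, TRAV10 with TRAJ27, 4 cells: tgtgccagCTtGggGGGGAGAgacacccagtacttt
KO replicate 1, TRAV10 with TRAJ27, 2 cells: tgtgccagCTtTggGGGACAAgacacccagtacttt
KO replicate 2, TRAV5-1 with TRAJ27, 6 cells: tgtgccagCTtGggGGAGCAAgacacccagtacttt
KO replicate 2, TRAV10 with TRAJ27, 3 cells: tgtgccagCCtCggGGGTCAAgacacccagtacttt
KO replicate 2, TRAV14-1 with TRAJ27, 2 cells: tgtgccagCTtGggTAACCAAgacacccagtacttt
TRAV5-1 or TRAV10 was the alpha V segment of 11 of the 14 clones.

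The third group was TRBV3 with aspartate followed by tryptophan in the CDR3, found in 21 small clones with 58 cells. All 21 spelled the pair as gactgg, shown in capitals in a selection that gives the largest clone of each library first and then others with TRAJ27.
CON replicate 1, TRAV3-3 with TRAJ27, 5 cells: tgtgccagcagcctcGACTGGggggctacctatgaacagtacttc
CON replicate 2, TRAV8-1 with TRAJ37, 8 cells: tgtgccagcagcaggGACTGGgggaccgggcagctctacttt
KO replicate 1, TRAV8-1 with TRAJ27, 2 cells: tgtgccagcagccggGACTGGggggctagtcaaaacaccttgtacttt
KO replicate 2, TRAV3-3 with TRAJ27, 2 cells: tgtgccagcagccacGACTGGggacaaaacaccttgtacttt
CON replicate 1, TRAV3-3 with TRAJ27, 3 cells: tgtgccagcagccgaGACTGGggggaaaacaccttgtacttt
CON replicate 2, TRAV3-3 with TRAJ27, 4 cells: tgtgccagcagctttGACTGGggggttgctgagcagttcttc
The deposited tables named the D segment TRBD2 for 9 of these 21 clones and TRBD1 for none, which allows a share of up to 14.3%. The alpha chain used TRAJ27 in 11 of the 21.

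The libraries held 460 to 1150 paired cells without the invariant cells. CON replicate 1 had 87 small clones with 290 cells and CON replicate 2 had 67 with 185 cells. KO replicate 1 had 45 with 131 cells and KO replicate 2 had 55 with 169 cells. Small clones made up 25.2% and 27.5% of paired cells in the CON libraries and 28.5% and 31.2% in the KO libraries. The mean was 26.4% ± 1.61 (SD, n = 2) for CON and 29.9% ± 1.95 (SD, n = 2) for KO. At an equal depth of 460 cells the shares were 27.8% and 27.5% in CON and 28.5% and 32.9% in KO, with both KO libraries above both CON libraries at either depth. The rest of the paired cells split differently, with 41.1% ± 1.62 of CON cells and 25.3% ± 4.87 of KO cells in large clones of 10 or more cells (SD, n = 2). Shares like these show composition, and cannot tell fewer cells of one kind from more of another.

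Most small clones were at the lower end of their range. There were 130 clones of 2 cells, 60 of 3, 26 of 4, 18 of 5 and 10 of 6, then 3 of 7, 3 of 8 and 4 of 9. Just outside the limits stood 1044 cells seen once, called unexpanded here, and 3 clones of 10 cells. The mean size was 3.05 ± 0.405 cells in CON and 2.99 ± 0.114 in KO (SD, n = 2).

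**Figure D1:**
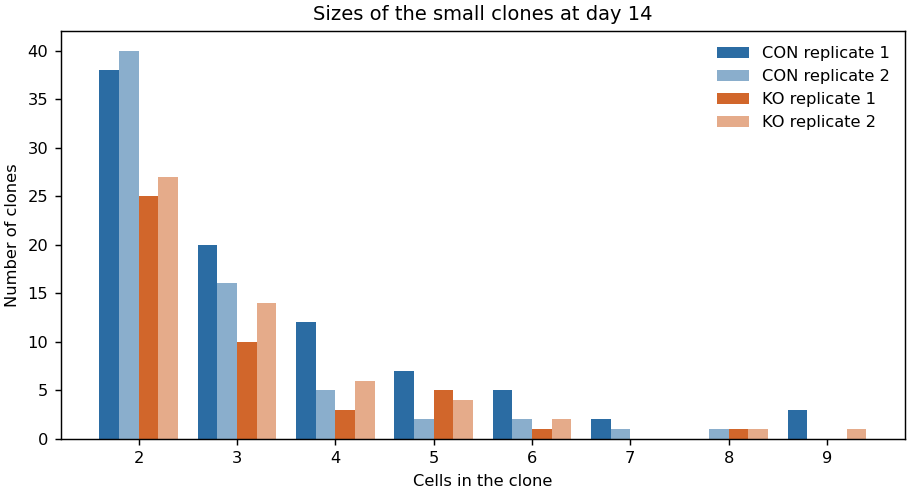
Number of small clones (vertical axis) by cells in the clone (horizontal axis), with a bar per day 14 library. In every library clones of 2 cells were the most frequent, from 25 in KO replicate 1 to 40 in CON replicate 2.

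The clones with the most cells differed between libraries in both chains, though single segments such as TRAV9-3, TRBV14 and TRAJ39 recurred. CON replicate 1 had 3 clones of 9 cells. The first paired TRAV9-3 with TRAJ22 to a TRB of the joint name TRBV12-2+TRBV13-2 with TRBJ1-2. Its TRB nucleotides also stood in a clonotype of 4 cells of that library, and a cell with a pair of alpha chains joined these clonotypes. The next paired TRAV3-3 with TRAJ15 to TRBV14 with TRBJ2-7. The third, with TRAV3-3, TRAJ27, TRBV3 and TRBJ2-4, matched a small clone of KO replicate 2 in the residues of both chains. The largest small clone of CON replicate 2 (8 cells) carried the TRBV3 chain with TRBJ2-2 and TRAJ37 shown above. KO replicate 1 had a clone of 8 cells with TRAV9-3, TRAJ39, TRBV14 and TRBJ2-5. The clone of 9 cells in KO replicate 2 used TRAV12-2, TRAJ39, TRBV3 and TRBJ1-1. Its TRB nucleotides also stood in a large clone of 12 cells of that library, likewise joined by a cell with a pair of alpha chains. Counted by the TRB alone, this clone and the first of CON replicate 1 would be parts of large clones.

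Small clones used TRAJ27, an alpha J segment on chromosome 14 (54192303 to 54192361, GRCm38), more often than unexpanded cells did. It was found in 20.7% and 17.9% of the small clones of the CON libraries and in 15.6% and 14.5% of those of the KO libraries. In unexpanded cells its shares were 6.15%, 10.0%, 6.09% and 5.51% in the same order. Small clones were above unexpanded cells in all 4 libraries, and the 2 sets of values did not overlap. The few large clones had TRAJ27 at 13.3% and 25.0% in the CON libraries and 0% in each KO library (4 of 33 clones, not tested). The means were 17.2% ± 2.73 and 6.95% ± 2.08 (SD, n = 4), a log2 fold change of 1.34 ± 0.33 (SE) with an adjusted p of 0.00678 by edgeR's quasi-likelihood test. It was the only segment of 104 tested that passed the threshold of 0.05 in this comparison (0.962% called), and 16 had an unadjusted p under 0.05. The call was lost without CON replicate 1 (log2 fold change 1.13, adjusted p 0.177) and without KO replicate 2 (1.33, adjusted p 0.0624), as it was with DESeq2 (1.26, adjusted p 0.202) and with TMM factors (1.14, adjusted p 0.0515). Counting cells in place of clones also ended it (1.32, adjusted p 0.0664).

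The 45 small clones with TRAJ27 used 10 of the 22 beta V names seen in small clones. TRBV3 was the partner in 19 of them, or 42.2%, beside 25.2% of all small clones. TRBV12-1 was the partner in 11, or 24.4%, beside 7.48% of all small clones. TRBV1 (6 clones, 13.3% beside 11.4%) and TRBV5 (3 clones, 6.67% beside 10.6%) came next. On the alpha side, TRAV3-3 was joined to TRAJ27 in 14 of them, TRAV10 in 5 and TRAV5-1 in 4. The combination of TRAV3-3, TRAJ27 and TRBV3 made 12 small clones, with 6, 3, 1 and 2 in the 4 libraries (CON then KO), against 8 of 1044 unexpanded cells and 1 of 1235 day 5 clonotypes. These combinations were noticed in the data and carry no test.

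Of the other segments, 7 stood next in order of p, none past the threshold. TRBV19, a beta V segment on chromosome 6 (41178589 to 41179048), was in 4 small clones, or 1.69% ± 2.13, against 6.27% ± 2.0 of unexpanded cells (SD, n = 4, log2 fold change -2.02 ± 0.63, adjusted p 0.0791 in edgeR). TRAV16, an alpha V segment on chromosome 14 (53743174 to 53743705), was in 1.67% ± 0.458 of small clones and 5.93% ± 1.37 of unexpanded cells (log2 fold change -1.89 ± 0.64). In each library TRAV16 was lower in small clones, at 1.15%, 1.49%, 2.22% and 1.82%, and no unexpanded value was under 4.72%. TRBV3 on chromosome 6 (41048394 to 41048824) was the most used beta V segment of small clones, with 64 of 254. Its share was 24.3% ± 5.85 against 14.0% ± 1.81 in unexpanded cells (SD, n = 4, log2 fold change 0.83 ± 0.28, adjusted p 0.0976 in edgeR). TRBV3 stood at 27.6%, 26.9% and 27.3% of small clones in 3 libraries and at 15.6% in KO replicate 1. Without KO replicate 1, the library with the lowest share, the TRBV3 difference passed the threshold (log2 fold change 0.93, adjusted p 0.0057 in edgeR). Without CON replicate 1 or without KO replicate 2 no segment passed, and over all omissions of 1 library the TRBV3 value ran from 0.73 to 0.93. TRBV5 followed the same layout, with 12.6%, 11.9% and 12.7% in 3 libraries and 2.22% in KO replicate 1, and its log2 fold change was 1.08 ± 0.39 (adjusted p 0.123 in edgeR). Without KO replicate 1 it was 1.36 with an adjusted p of 0.0105. TRAJ17 (log2 fold change -2.77 ± 1.02), TRBV13-3 (-1.69 ± 0.66) and TRBV12-2 (-1.41 ± 0.57) had lower shares in small clones, with adjusted p from 0.123 to 0.186 in edgeR.

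**Figure D2:**
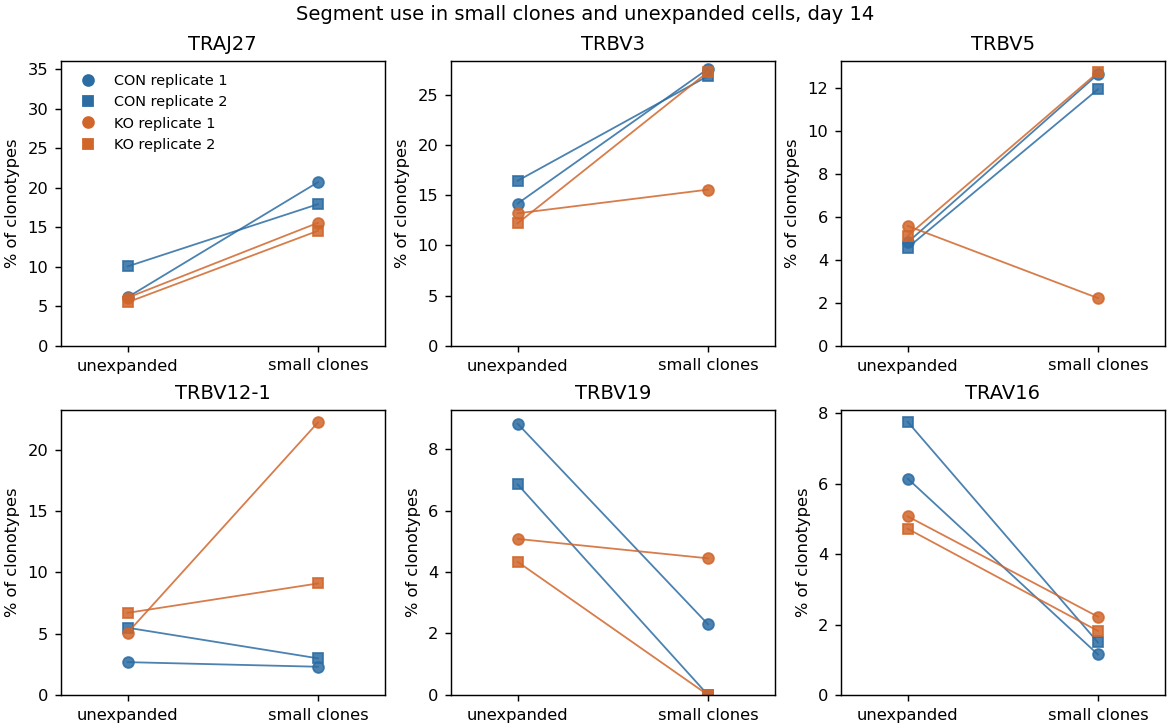
Share of clonotypes (percent, vertical axis) with each of 6 segments in unexpanded cells and small clones, with a line per day 14 library. TRAJ27 rose from 5.51-10.0% to 14.5-20.7% in all 4 libraries, and in the KO libraries TRBV12-1 stood at 22.2% and 9.09% of small clones.

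Groups of segments defined by their place in the locus or by family gave no call beyond TRAJ27 against unexpanded cells, a segment that none of them holds. The median log2 fold change over all 104 tested segments was -0.25, and it was -0.46 with TMM factors and -0.36 with DESeq2, so differences near these values depend on the scaling. The Vbeta8 family (TRBV13 members and the joint name) had 4 tested members, all below 0 with a median of -0.99, and made up 10.9% ± 3.15 of small clones against 20.03% ± 2.497 of unexpanded cells (SD, n = 4). TRBV13-2 had the value -1.36 ± 1.46 here. In large clones the family member TRBV13-1 alone had a mean share of 24.6% ± 11.3 (7 of 33 clones, SD, n = 4, not tested). The Vbeta5 pair had a median of -0.36 with TRBV12-1 at 0.68 ± 0.44 and TRBV12-2 at the value above. Alpha J segments near the V cluster, which are joined first, had 13 tested members with a median of -0.34, among them TRAJ57 (-1.94 ± 1.26) and TRAJ50 (-1.24 ± 1.51). Those at the far end had 12 tested members with a median of -0.60, among them TRAJ13 (-1.40 ± 0.97). Alpha V segments of the families TRAV1 to TRAV4 had 4 tested members with a median of 0.48, led by TRAV2 (1.84 ± 0.84) and TRAV3-3 (0.95 ± 0.41). Those of the families TRAV14 to TRAV21 had 5 tested members with a median of -0.69, with TRAV14-3 at -1.02 ± 0.64. Both lists follow family numbers and do not part by distance from the J segments. By its start TRAV3-3 (53666005) lies nearer to them than TRAV14-1 (53554057), and copies of a TRAV segment share 1 name. The 6 Jbeta1 segments had a median of -0.25, with TRBJ1-3 at -0.94 ± 0.56 and TRBJ1-4 at -0.55 ± 0.55. The 6 Jbeta2 segments had a median of -0.09, with TRBJ2-5 at 0.43 ± 0.33 and TRBJ2-3 at -0.39 ± 0.39. None of these members passed the threshold in either direction.

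Between the genotypes, TRBV12-1 was the only segment of small clones past the threshold. TRBV12-1, a beta V segment of the Vbeta5 family on chromosome 6 (41113567 to 41114067), was found in 2 clones of each CON library, in 10 of KO replicate 1 and in 5 of KO replicate 2. These counts were 2.30% and 2.99% of the small clones in CON and 22.2% and 9.09% in KO, and KO replicate 1 was the higher of the KO libraries. The log2 fold change was 2.44 ± 0.62 (SE) with an adjusted p of 0.0458 by edgeR's quasi-likelihood test, the only call among 31 segments with at least 10 small clones (3.23% called). Unexpanded cells used TRBV12-1 at 2.67% and 5.48% in CON and 5.08% and 6.69% in KO, and these ranges overlapped.

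The TRBV12-1 call was close to the threshold. The 10 clones of KO replicate 1 rested on 6 TRB nucleotide sequences. Of these clones 7 shared their TRB with another clonotype of the library, and for 6 of the 7 a cell with a pair of alpha chains joined the clonotypes. By distinct TRB sequences the numbers were 2 and 2 in CON and 6 and 5 in KO. With the TRB alone as the clone the log2 fold change was 2.08 (adjusted p 0.148 in edgeR), and by the authors' clonotype identifier 1.95 (adjusted p 0.149). The call was also lost without CON replicate 1 (2.25, adjusted p 0.458) or CON replicate 2 (2.61, adjusted p 0.105), and without KO replicate 1 too few clones remained to test it. It ended as well with TMM factors (2.43, adjusted p 0.0819), with DESeq2 (2.61, adjusted p 0.308), with chains of 2 or more UMIs (2.24, adjusted p 0.289) and without possible doublets (2.48, adjusted p 0.219). Most of the TRBV12-1 clones belonged to the 12-residue group shown above, with 0 and 2 clones in CON and 9 and 3 in KO. The 0 of 87 clones in CON replicate 1 allows a share of up to 3.45%. The group was seen in 2 unexpanded cells and in 4 large clones, with 134 cells, of which 3 clones came from CON libraries and 1 from a KO library. No day 5 clonotype of 1235 carried it, which allows a share of up to 0.243%. The receptors of the group were thus present in both genotypes at day 14.

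Among the other segments compared between genotypes, none passed the threshold. TRBJ1-1 was in 16.1% and 13.4% of CON and 6.67% and 5.45% of KO small clones (log2 fold change -1.29 ± 0.52, adjusted p 0.486 in edgeR). TRBJ2-5, the J segment of the 12-residue group, was in 11.5% and 11.9% of CON and 28.9% and 14.5% of KO clones (0.83 ± 0.47). TRBJ2-1 was in 4.60% and 11.9% against 13.3% and 14.5% (0.83 ± 0.53), and TRBJ2-2 had the value -2.34 ± 1.52. Of the alpha V segments, TRAV6-6 (-1.32 ± 0.78), TRAV14-1 (1.37 ± 0.94) and TRAV10 (1.75 ± 1.26) came next. TRBV3 had the value -0.31 ± 0.40. The median over the 31 segments was -0.18. Of the lists, only Vbeta5 held a called member, TRBV12-1, its single tested segment. The single tested members of other lists were TRAJ12 (0.34 ± 0.98) for the far alpha J segments and the joint name TRBV12-2+TRBV13-2 (-0.67 ± 0.73) for Vbeta8. For the alpha V families TRAV1 to TRAV4 it was TRAV3-3 (-0.64 ± 0.55), and for TRAV14 to TRAV21 it was TRAV14-1. The near alpha J list had no member with enough clones. The 2 tested Jbeta1 members had a median of -0.89 (TRBJ1-2 at -0.50 ± 0.62), and the 6 Jbeta2 members a median of -0.09. Whether the small-clone difference from unexpanded cells itself differed between genotypes was tested by an interaction term for 104 segments, of which edgeR called 0 (6 at an unadjusted p under 0.05), with TRBV12-1 at 1.88 ± 0.79 (adjusted p 0.825).

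The TRBV3 group with aspartate and tryptophan lay the other way round. It made up 11.5% and 11.9% of CON small clones (10 and 8 clones) and 2.22% and 3.64% of KO small clones (1 and 2 clones). In unexpanded cells the shares were 2.94% and 2.28% in CON and 1.52% and 1.97% in KO, and at day 5 they were 1.00%, 1.02%, 0.702% and 1.95%. No large clone of 33 carried it, which allows a share of up to 9.09%. The group was picked after its values were seen, so the difference has no test.

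TRAV7-6 joined to TRAJ22, the usual partner of the public TRBV5 chain, was found in 4 and 3 small clones of CON and 1 and 3 of KO. These were 4.60%, 4.48%, 2.22% and 5.45% of small clones, against a mean of 0.623% ± 0.478 of unexpanded cells (SD, n = 4). It also made 4 large clones with 139 cells. Only 2 of 1235 day 5 clonotypes had this alpha pair.

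**Figure D3:**
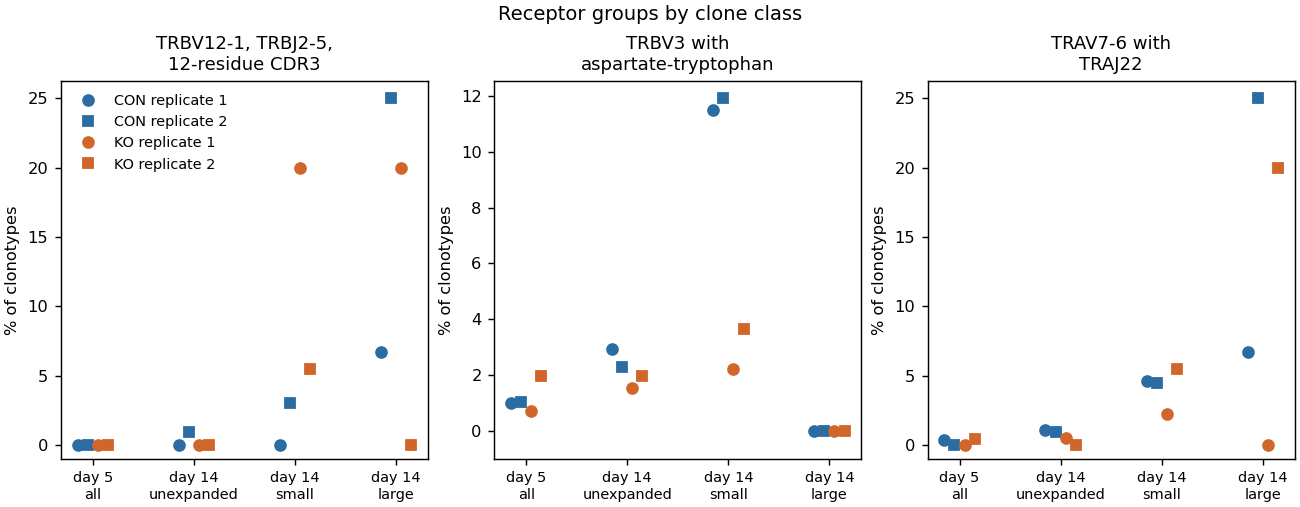
Share of clonotypes (percent, vertical axis) with each of 3 receptor groups, by class of clone (horizontal axis), with a point per library. The 12-residue TRBV12-1 group reached 9 of 45 small clones in KO replicate 1 and was absent at day 5, and the TRBV3 aspartate-tryptophan group stood at 11.5% and 11.9% of small clones in the CON libraries.

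The TRB chains of small clones had relatives in other libraries more often than those of unexpanded cells. An identical TRB (same V, same J and same CDR3 residues) was found in at least 1 of the 7 other libraries of both days for 33 of 254 small clones, holding 112 cells, and for 48 of 1044 unexpanded cells. By library the shares were 11.5% and 10.4% in CON and 13.3% and 18.2% in KO for small clones, against 2.67%, 5.48%, 6.09% and 5.51% for unexpanded cells. The means were 13.4% ± 3.43 and 4.94% ± 1.54 (SD, n = 4), a difference of 8.43 percentage points. Small clones were higher in 4 of 4 libraries, for which the two-sided exact sign-flip permutation test gave p = 0.125, the smallest it can give. A TRB of the same length that differed by 1 residue was found for 27.4% ± 5.40 of small clones and 10.5% ± 3.06 of unexpanded cells, a difference of 16.9 points in the same direction in 4 of 4 libraries (exact p = 0.125). Large clones had an identical TRB elsewhere in 32.7% ± 20.9 of cases (9 of 33), above small clones in all 4 libraries.

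Most of this sharing was between day 14 libraries. The TRB chains of small clones in each library were searched for in every other library, so each pair of day 14 libraries was searched in both directions. A chain was counted once for each library it was found in, and from both sides where both had it in small clones. There were 36 such matches with day 14 libraries, or 161 per 1000000 possible pairs of chains, with at least 1 in 12 of 12 searches. With day 5 libraries there were 3, or 10.2 per 1000000, in 3 of 16 searches. Unexpanded cells shared 63.6 per 1000000 with day 14 and 3.94 with day 5 libraries. Small clones had 4 matches between the CON libraries, 6 between the KO libraries and 26 across genotypes, or 75.4, 250 and 178 per 1000000 pairs. Unexpanded cells shared 24.9, 68.1 and 74.9 per 1000000 in the same order (5, 8 and 48 matches). An identical TRB was found elsewhere for 10.97% ± 0.740 of CON small clones and 15.8% ± 3.43 of KO small clones (SD, 2 libraries each). With 2 libraries against 2 the smallest two-sided exact p is 0.333, so this difference was not tested further.

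**Figure D4:**
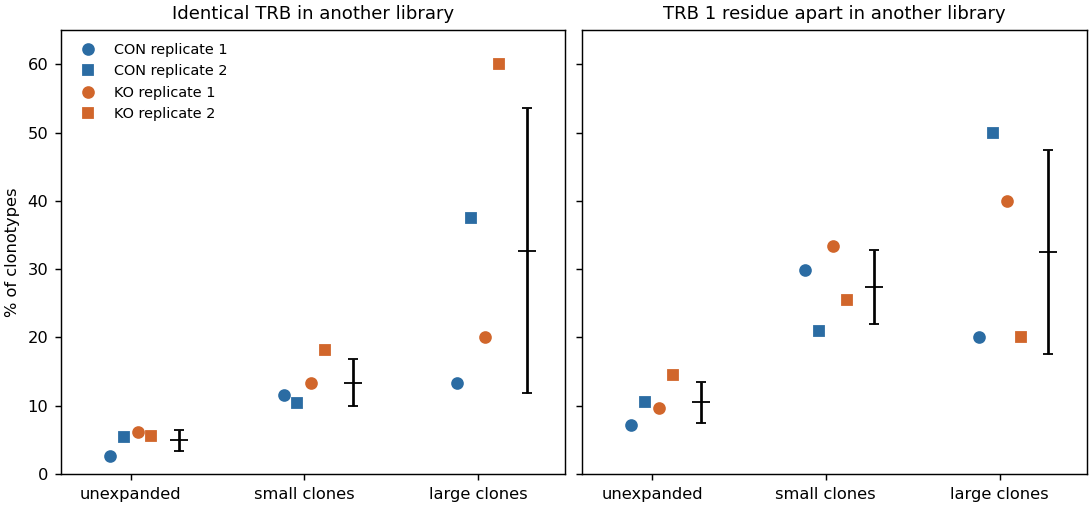
Share of clonotypes (percent, vertical axis) whose TRB was found in another library, identical (left) or 1 residue apart (right), by class of clone, with a point per library and bars for mean ± SD (n = 4). Small clones lay at 10.4-18.2% for identical chains, above the 2.67-6.09% of unexpanded cells.

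Of the 33 small clones with an identical TRB elsewhere, 11 had the same nucleotides there, and the others matched in residues alone. The relative was itself a small clone for 16, a large clone for 9 and an unexpanded cell for 26, with some counted more than once. A relative used the same TRAV and TRAJ in 16 cases and the same TRA residues in 11. Of the 254 small clones, 9 had their TRB in 3 other libraries, 1 in 2 and 23 in 1. Of those 9 clones, 7 carried the public TRBV5 chain of 11 residues shown first. The 33 clones are therefore not 33 separate chains. Barcodes shared between libraries were few, 14 over 28 library pairs, and 0 of them carried the same TRB.

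Receptors with both chains alike in residues were found in 2 or more libraries for 9 pairs that included a small clone. One pair was a small clone of 9 cells in CON replicate 1 and of 3 cells in KO replicate 2, with TRAV3-3, TRAJ27, TRBV3 and TRBJ2-4. Its nucleotides differed in both chains, at the capital letters.
CON replicate 1, TRA: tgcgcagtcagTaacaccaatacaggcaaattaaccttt
KO replicate 2, TRA: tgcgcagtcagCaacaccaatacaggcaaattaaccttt
CON replicate 1, TRB: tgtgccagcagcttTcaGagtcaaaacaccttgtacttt
KO replicate 2, TRB: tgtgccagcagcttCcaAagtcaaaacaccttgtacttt
A small clone of 7 cells in CON replicate 1 (TRAV9-1, TRAJ23, TRBV10, TRBJ2-3) matched an unexpanded cell of KO replicate 1, with the same TRA nucleotides and a TRB that differed at 2 positions.
CON replicate 1, TRB: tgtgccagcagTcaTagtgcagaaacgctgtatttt
KO replicate 1, TRB: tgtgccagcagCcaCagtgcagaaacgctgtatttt
The KO replicate 1 small clone of 5 cells with TRAV3-3, TRAJ27, TRBV3 and TRBJ2-3 matched an unexpanded cell of KO replicate 2, again with other TRB nucleotides. A small clone of 3 cells in KO replicate 1 (TRAV14-2, TRAJ7, TRBV19, TRBJ1-3) matched an unexpanded cell of KO replicate 2, and its TRB was found in 3 other libraries, 1 of them from day 5. TRAV4-3 with TRAJ15 and TRBV16 with TRBJ2-4 made a small clone of 3 cells in CON replicate 1 and was found in 3 unexpanded cells, 1 of CON replicate 1 and 2 of KO replicate 1.

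In 2 cases the CDR3 nucleotides of both chains were alike as well. The TRBV19 clone of 3 cells in KO replicate 1 shared them with 1 cell of KO replicate 2 at day 5, whose alpha V segment was named TRAV14-3. A small clone of 2 cells in KO replicate 1 with TRAV9-1, TRAJ23, TRBV3 and TRBJ2-7 was found with the same CDR3 nucleotides in the other 3 day 14 libraries, as a large clone of 11 cells in CON replicate 1 and as 1 cell each in CON replicate 2 and KO replicate 2. Its TRB was this.
All 4 day 14 libraries: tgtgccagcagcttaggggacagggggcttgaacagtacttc

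The CDR3 loops of small clones were compared with those of unexpanded cells in length and content. The mean TRB CDR3 length was 13.67 ± 0.152 residues in small clones and 13.85 ± 0.0542 in unexpanded cells (SD, n = 4, lower in 3 of 4 libraries, two-sided exact sign-flip p = 0.25, adjusted p 0.45 over 9 features). Short loops of 12 residues or fewer were in 21.8% and 19.4% of CON and 37.8% and 25.5% of KO small clones, against 16.04%, 17.4%, 18.3% and 14.2% of unexpanded cells, a count made after seeing the lengths. Of the 63 small clones with such short loops, 16 used TRBV12-1 and 11 used TRBV5, among them the 14 clones of the 12-residue TRBV12-1 group and the 7 of the public TRBV5 chain. Within small clones the mean length was 13.78 and 13.82 in the CON libraries and 13.53 and 13.55 in the KO libraries, a difference of -0.26 without overlap (exact permutation p = 0.333, the smallest that 2 against 2 allows).

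Net charge of the TRB CDR3, counting lysine and arginine against aspartate and glutamate, was -1.07, -0.955, -0.889 and -1.02 in small clones and -0.813, -0.790, -0.736 and -0.921 in unexpanded cells. Small clones were more negative in 4 of 4 libraries, with means of -0.983 ± 0.0780 and -0.815 ± 0.0778 (SD, exact p = 0.125, the smallest possible, adjusted p 0.45). The hydropathy of the central TRB residues was -1.08 ± 0.0952 in small and -1.38 ± 0.149 in large clones, higher in 4 of 4 libraries (exact p = 0.125, adjusted p 0.562). Against unexpanded cells (-1.04 ± 0.0469) it differed by less than its spread. A pair of hydrophobic residues at positions 6 and 7, counted from the first residue of the CDR3, was in 2.96% ± 2.505 of small clones and 2.84% ± 1.16 of unexpanded cells. The TRA CDR3 had 13.50 ± 0.246 and 13.64 ± 0.0996 residues. A D segment was named for 19.3% ± 3.63 of small clones and 22.8% ± 2.44 of unexpanded cells. Of these features none reached an adjusted p under 0.45 in any of the 3 comparisons, and the design does not allow a p under 0.125 within libraries.

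Cells of small clones held more TRB transcripts than unexpanded cells. The median was 12, 11, 11 and 12 UMIs (unique molecular identifiers, which count captured transcripts) per cell in small clones and 10, 9, 10 and 8 in unexpanded cells. The difference of 2.25 was seen in 4 of 4 libraries (exact p = 0.125, the smallest possible, adjusted p 0.45). Large clones had a mean of 16.2 ± 3.93 against 11.5 ± 0.577 (SD, n = 4), with small clones lower in 3 of 4 libraries. The median TRA count was 5.00 ± 0.816 in small clones and 4.25 ± 0.5 in unexpanded cells. CON and KO small clones had the same mean of these medians for either chain, 11.5 for TRB and 5 for TRA. Between 3.82% and 7.10% of the cells in small clones had a TRA chain with a single UMI, and 0.690% to 2.29% a TRB chain with a single UMI.

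**Figure D5:**
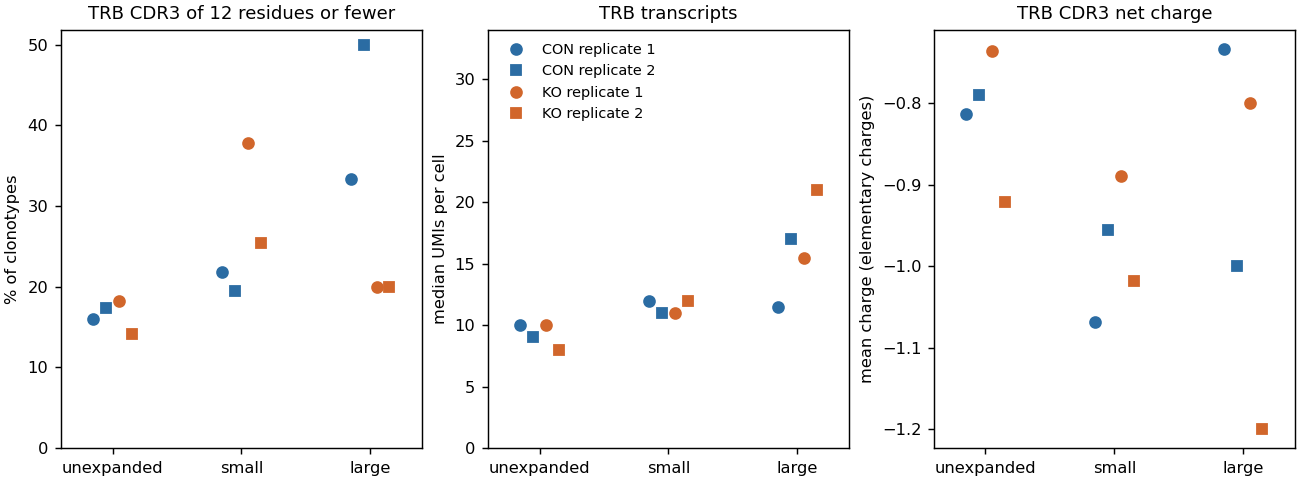
Short TRB CDR3 loops (percent of clonotypes), median TRB UMIs per cell and mean TRB net charge by class of clone, with a point per day 14 library. Small clones lay above unexpanded cells in TRB UMIs (11 to 12 against 8 to 10) and below them in net charge within each library.

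Of the 4 kinds of chain that the rule did not use, 3 were alike in all pairs of cells of a small clone, and the non-productive TRA in most. A second productive TRA was found in 73 cells of 39 small clones. In the 27 clones with 2 or more such cells it was the same in 42 of 42 pairs of cells, and it was the same in 0 of 746 pairs of different clones of a library. A non-productive TRB was the same in 18 of 18 pairs within clones and 7 of 195 between clones, and a non-productive TRA in 26 of 33 and 0 of 707, with full agreement in 12 of 18 clones. An extra productive TRB was found in 13 cells of 7 small clones, and it agreed in 12 of 12 pairs within 3 clones and 0 of 10 between clones. Of the 254 small clones, 7 held a possible doublet, 13 cells in all. Averaged over clones, the share of cells with a second TRA was 11.4% ± 7.16 in small clones and 11.2% ± 1.77 in unexpanded cells (SD, n = 4).

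The TRB nucleotides of 39 small clones were found in another clonotype of the same library. For 30 of these a second TRA joined the clonotypes, and for 9 it did not. In 13 small clones the same TRB residues occurred in their own library with other nucleotides. No cell of a small clone carried TRAV1 with TRAJ33, the alpha chain of mucosal-associated invariant T cells, which among 775 cells allows a share of up to 0.387%. These limits, and those given for other counts of 0, cover counting error only.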

How the data were processed

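Receptor chains of single cells from 8 libraries were used, 4 of them from day 14. Per the file headers, the deposited tables hold counts of UMIs and reads per assembled contig, whole numbers with no normalization. Seurat 4.0.0, Cell Ranger 3.1.0, CASAVA 1.8, R 4.1.2 and the builds GRCm38 and mm10 are listed in the submitters' processing notes without roles. Contigs that the authors called cells, high confidence and productive were kept, and the chain with the most UMIs stood for TRA and for TRB. Copies of TRAV segments were given 1 name (47 of 88), though clones were matched on the deposited names. Positions of 116 of 124 segments came from RefSeq, GRCm38.p6. At day 14 the libraries had 570 to 1404 cells, with 11441 to 31936 UMIs each.

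Segments were tested on counts of clones, with the number of clones of the library as the offset, in edgeR 4.0.16 (R 4.3.3), with Benjamini-Hochberg adjustment. Genotypes were compared in the small clones of 4 libraries, and small clones with unexpanded cells with the library as a block. A segment needed at least 10 clonotypes. The test was checked on simulated counts. There it called 0% of 2-fold changes between genotypes and 4% of those against unexpanded cells. For 4-fold changes it called 61.5% and 70.8%, and for 8-fold changes 90.9% and 100%. A segment without a call may therefore still differ by 2-fold or more. Features used two-sided exact permutation tests (16 sign flips or 6 relabelings). Named segments were those past the threshold or the 8 with the smallest p, and the 2 list members with the largest change. Named clones were the largest of each library and those shared between libraries. The members and lists were chosen with earlier results of these data known. The 8 RNA libraries were not analysed here.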

Additional observations from a re-analysis of the deposited data

Results flagged for a closer look

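Of 18 differences of features and 4 of TRB relatives taken within libraries, 2 had opposite signs in the genotypes. In these every CON library moved one way and every KO library the other, and neither difference was tested. Such a split is 2 of the 16 sign patterns of 4 libraries, so a screen of this many differences can give some without a genotype difference. Central TRB hydropathy of small clones minus that of unexpanded cells was 0.00404 and 0.120 in the CON libraries and -0.087 and -0.195 in the KO libraries. TRB CDR3 length of small clones minus that of large clones was 0.448 and 0.946 residues in CON and -0.267 and -0.255 in KO, where each KO library had 5 large clones.

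TRB chains of small clones were also found outside the paired cells. Of 491 cells with a TRB and no TRA chain, 65 carried the TRB of a small clone of their own library, from 45 clones, and 1 cell a TRB known only from another day 14 library. Of 112 barcodes that the authors did not call cells, 17 carried the TRB of a small clone of their library, and 0 one of another library, which allows a share of up to 2.68%. TRB chains of unexpanded cells were found in 59 and 15 of these barcodes, and those of large clones in 62 and 33. The barcodes were noted because the counts for small clones were above the limit of 3 that a count of 0 allows, and no further comparison was made.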

How the results depend on the processing

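The call of TRBV12-1 between genotypes and that of TRAJ27 against unexpanded cells both depended on the settings, while their direction did not change. Between genotypes 0 of the tested segments passed with TMM factors, DESeq2, chains of 2 or more UMIs, possible doublets left out, the TRB alone or the authors' clonotype identifier, where 2, 1, 1, 2, 3 and 3 had an unadjusted p under 0.05. Without 1 library 0 to 1 passed. Against unexpanded cells 0 passed with TMM factors, DESeq2 or cells counted in place of clones (16, 5 and 12 at an unadjusted p under 0.05), 4 with chains of 2 or more UMIs, 4 with the TRB alone and 2 with the authors' identifier. Without 1 library 0 to 4 passed, 0 without CON replicate 1 and without KO replicate 2, and 4 without KO replicate 1. The cause of these changes was not tested. The replicate block left 1 segment called between genotypes, TRBV12-1 at 2.54. Replicate numbers did not pair the samples (correlation of -0.125 for both), and a crossed pairing, chosen after seeing the data, also gave 1 call.

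Without 1 library the genotype values ran from -1.74 to 0.037 for TRBV12-2+TRBV13-2, from -0.80 to 4.98e-06 for TRBV3 and from -1.605 to 0.025 for TRBJ1-2, and TRBV12-1 against unexpanded cells from -0.088 to 1.01. Those reversals came without KO replicate 2 for the joint name and without KO replicate 1 for the other 3.

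Small differences in features changed sign. Hydrophobic pairs in KO minus CON went to 1.54 points with chains of 2 or more UMIs, 0.249 with the TRB alone and 0.208 with the authors' identifier, and ran from -3.04 to 2.93 without 1 library. Against unexpanded cells they went to -0.659 with chains of 2 or more UMIs and -0.316 without possible doublets, and ran from -1.07 to 0.938. The share with a second TRA against unexpanded cells went to -0.359 with chains of 2 or more UMIs, -1.29 over cells and -4.14 with TRA thinned to 4 UMIs (chosen after seeing the data), and ran from -2.45 to 2.89. Against large clones it was 0.737 with the TRB alone and ran from -15.6 to 2.95. The share with a named D segment in KO minus CON was -0.739 with chains of 2 or more UMIs and ran from -3.51 to 4.57. The TRA length against large clones was -0.140 over cells. TRB UMIs in KO minus CON were 1 with chains of 2 or more UMIs and -1.86 as a mean over cells. Without 1 library TRB length against large clones ran from -0.024 to 0.380, net charge against large clones from -0.127 to 0.046 and in KO minus CON from -0.0061 to 0.123, hydropathy against unexpanded cells from -0.093 to 0.012, and the share with a near TRB against large clones from -10.1 to 2.89 points.

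With clones of 3 to 9 cells there were 124 clones, with 17.1% of CON and 19.4% of KO cells, and with 2 to 4 cells 18.996% and 21.1%. Of 857 values under alternatives, 780 kept their direction and call or stayed within the spread. For features and TRB relatives this speaks of direction alone, since their exact tests cannot reach the threshold. TRB relatives against unexpanded cells kept their direction in every alternative run. Only 31 segments reached the 10 small clones needed for the genotype comparison. KO replicate 1, with 460 paired cells, is the shallowest library.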
